A study of Mus musculus with 6 samples.

Results

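The genes described here are 9 transcription factors of the pancreatic islet, Pdx1, Nkx6-1, Nkx2-2, Pax6, Isl1, Neurod1, Rfx6, Mnx1 and Insm1, and Plut, a noncoding RNA whose gene lies beside Pdx1. They were taken by name, as the probe sets whose annotation gives a single symbol from this list. All 10 were measured, each by 1 probe set, out of 22180 genes in all. Islets, the clusters of hormone cells of the pancreas, came from mice labelled female, aged 5 weeks and on the C57BL/6J background. The 3 arrays labelled wildtype held islet RNA of littermates with floxed Sel1L alleles (Sel1L f/f), which carry no Cre per the breeding scheme in the labels. The 3 Sel1L-deficient arrays held islet RNA of mice in which Ins1Cre, a Cre recombinase inserted at an insulin gene, removes Sel1L in β cells. The genotypes therefore differ in the Cre insertion as well as in Sel1L, and the other islet cells keep the gene. The labels do not say how many animals an array pooled or whether arrays came from separate mice, so p-values cover no more than the spread among these arrays.

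Islet transcription factors act as a network that first makes endocrine cells in the embryo and then keeps them in one identity. PDX1, NKX6-1 and MNX1 are homeodomain proteins that mark β cells among the endocrine cells, PDX1 being shared with δ cells. NKX2-2, PAX6, ISL1, NEUROD1, RFX6 and INSM1 are found more broadly in endocrine cells, and several of these factors bind the insulin promoter or repress genes of other hormone cells. SEL1L is a subunit of the HRD1 ubiquitin ligase complex, which clears misfolded proteins from the endoplasmic reticulum. The title of the series places the comparison in the question of how that clearance bears on β-cell identity.

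Sel1l, the targeted gene, read 8.46, 8.56 and 8.76 on the wildtype arrays and 7.73, 7.65 and 7.68 on the Sel1L-deficient arrays, on the log2 scale of the deposited RMA values (a summary per probe set after background correction and normalization). It was lower on every Sel1L-deficient array (difference -0.90 ± 0.11 SE, limma adjusted p = 0.0312). The hormone genes Ins2, Gcg and Sst stood at 10.5 to 12.7 on all arrays, against array medians of 3.08 to 3.16, so the samples carried the markers of islets. Replicate 3 of each genotype went against the label female: its Xist level was 2.93 (wildtype) and 3.08 (Sel1L-deficient), where the remaining arrays had 9.93 to 10.4. Uty, Kdm5d and Eif2s3y, on the Y chromosome, were high on these 2 arrays alone, at 5.39 to 7.31 compared with 1.20 to 2.07. Each genotype holds 1 such array, and values without both are given where they matter. Over all genes 54 passed a limma adjusted p of 0.05, which is 0.243% of those tested, and 34 of these were lower, or 0.153%.

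Plut was lower and, of the 10 members, passed the threshold over all genes, while the other 9 did not. Pdx1 differed by a like size, -0.66 against -0.67 for Plut. The Plut probe set lay near the array medians. Its call was lost in 12 of 17 other fits, among them all 6 that left out 1 array. In bulk islet RNA fewer cells of a type and less RNA per cell cannot be told apart. Around it, the β-cell factors Pdx1, Nkx6-1 and Mnx1 and the broader factor Nkx2-2 each had their 3 Sel1L-deficient values below all 3 wildtype values. Rfx6 read higher on all 3. Pax6, Isl1, Neurod1 and Insm1 overlapped between genotypes, though whether the Neurod1 probe set reads that gene was not tested. The 5 members that lay wholly lower compare with 7.84% of all genes, and the 1 that lay wholly higher with 7.22%. At an unadjusted p under 0.05 there were 6 members, against 9.48% of all genes. The median difference was -0.24 over the members and 0.000441 over all genes.

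**Figure D1:**
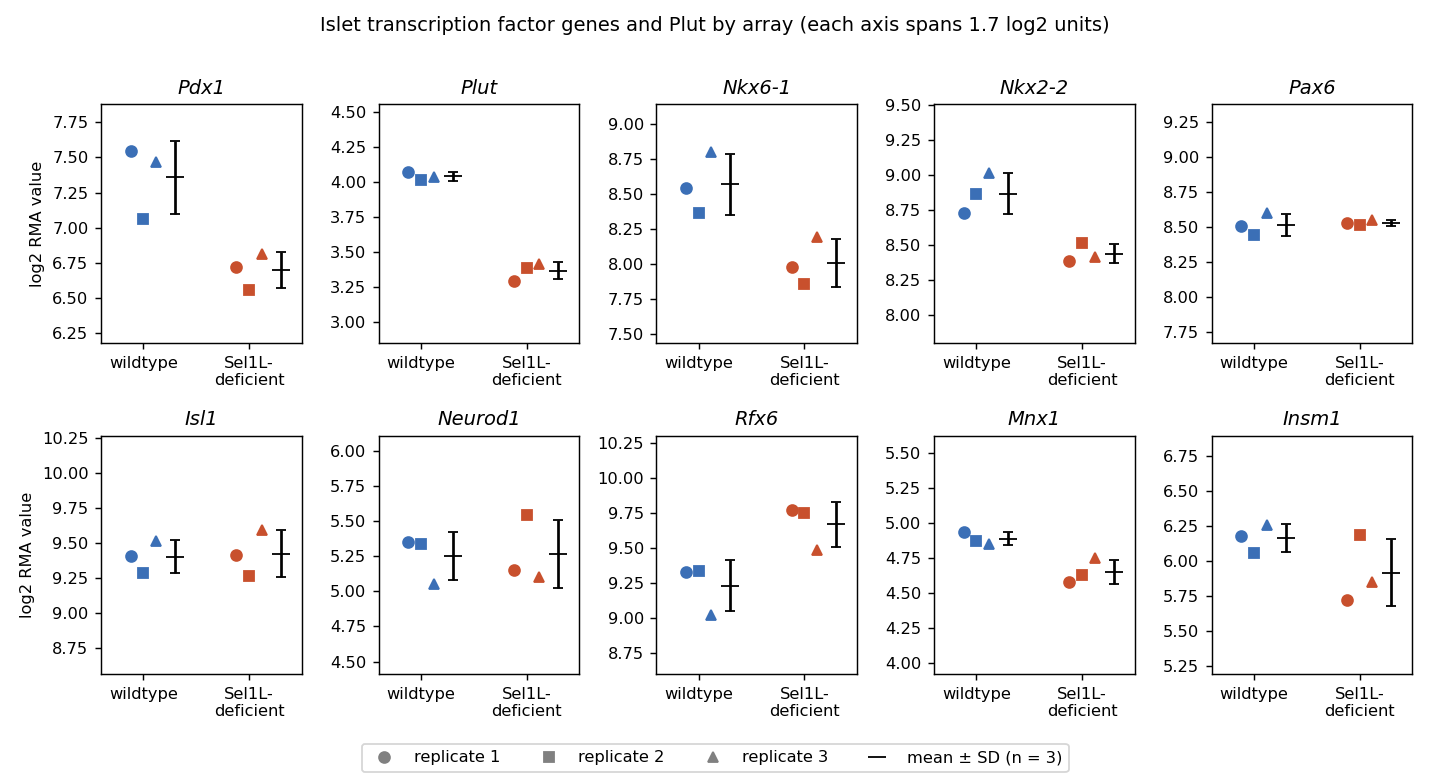
Log2 RMA value (vertical axis) of the 10 genes on each of the 6 arrays, wildtype in blue and Sel1L-deficient in orange, with the replicate number as the symbol and the mean ± SD of 3 arrays in black; every axis spans the same number of log2 units. Plut shows 2 tight, separate groups at 4.04 and 3.36, Pdx1, Nkx6-1, Nkx2-2 and Mnx1 lie lower in Sel1L-deficient islets without overlap, Rfx6 lies higher, and the other 4 overlap.

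Pdx1 and Plut share a stretch of chromosome 5. In RefSeq (GRCm38.p6) Pdx1 is read from the plus strand and Plut from the minus strand, and their starts lie 1424 bases apart, with the Plut start downstream of the Pdx1 start and read back toward it. The windows below hold the 250 bases before each start, for Plut, which passed the threshold, for Pdx1 beside it, and for the members with the next largest differences, Nkx6-1, Nkx2-2 and Rfx6, which did not pass. Capitals mark 3 short motifs, searched on both strands: the homeodomain core TAAT, the E-box CANNTG bound by helix-loop-helix factors such as NEUROD1, and TGCTGA, one side of the paired element bound by MAF factors such as MAFA. No Pdx1 or Plut match was to a homeodomain core.
Pdx1, chr5:147269847-147270096, plus strand: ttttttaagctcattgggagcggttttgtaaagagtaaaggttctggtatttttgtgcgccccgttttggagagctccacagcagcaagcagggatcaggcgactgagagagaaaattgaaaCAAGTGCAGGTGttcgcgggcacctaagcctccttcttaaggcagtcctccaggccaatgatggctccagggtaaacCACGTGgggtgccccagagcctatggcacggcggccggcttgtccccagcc
Plut, chr5:147271522-147271771, minus strand: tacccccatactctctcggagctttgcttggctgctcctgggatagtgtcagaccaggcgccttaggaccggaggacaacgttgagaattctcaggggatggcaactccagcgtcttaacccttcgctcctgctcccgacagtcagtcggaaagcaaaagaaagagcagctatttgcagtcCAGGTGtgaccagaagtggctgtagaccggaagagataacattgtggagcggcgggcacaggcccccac
Nkx6-1, chr5:101664712-101664961, minus strand: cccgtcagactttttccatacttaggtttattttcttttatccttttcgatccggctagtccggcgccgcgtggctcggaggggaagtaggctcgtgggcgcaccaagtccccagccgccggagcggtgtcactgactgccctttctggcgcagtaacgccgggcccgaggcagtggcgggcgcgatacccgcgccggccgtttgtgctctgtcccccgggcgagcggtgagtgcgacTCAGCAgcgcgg
Nkx2-2, chr2:147186403-147186652, minus strand: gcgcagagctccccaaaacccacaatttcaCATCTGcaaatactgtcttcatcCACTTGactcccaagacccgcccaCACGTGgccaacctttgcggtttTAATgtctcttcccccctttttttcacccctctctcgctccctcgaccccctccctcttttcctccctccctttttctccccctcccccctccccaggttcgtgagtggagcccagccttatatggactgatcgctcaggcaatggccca
Rfx6, chr10:51685268-51685517, plus strand: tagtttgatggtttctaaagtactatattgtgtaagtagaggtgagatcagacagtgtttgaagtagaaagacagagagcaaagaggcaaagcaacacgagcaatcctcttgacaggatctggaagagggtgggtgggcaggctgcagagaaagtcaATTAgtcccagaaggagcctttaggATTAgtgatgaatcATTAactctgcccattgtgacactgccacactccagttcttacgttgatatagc

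The Pdx1 window held 3 E-boxes, 2 of them end to end, at positions -128, -122 and -51, counted from the start with -1 as the base just before it. The Plut window held 1, at -69, with the same 6 letters as the Pdx1 match at -122. Nkx2-2 held 3 E-boxes and 1 homeodomain core, Rfx6 held 3 homeodomain cores and 0 E-boxes, and Nkx6-1 held 1 MAF motif and neither of the others. Such matches are frequent: of 32851 RefSeq windows of this length 66.2% held an E-box, 54.9% a homeodomain core and 16.1% the MAF motif. Among the 9 members with a window, 7 had an E-box, 5 a homeodomain core and 2 the MAF motif, in at least 1 window. The letters are a description of the windows and were not measured as binding here.

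Plut read 4.07, 4.01 and 4.04 on the wildtype arrays and 3.30, 3.38 and 3.41 on the Sel1L-deficient arrays. The arrays of each genotype lay close together, and the groups were separated by 0.60 log2 units, the widest gap among the members. Plut fell 1.60-fold, from 4.04 ± 0.03 to 3.36 ± 0.06 (SD, n = 3 each; difference -0.67 ± 0.10 SE, 95% interval -0.89 to -0.45, limma adjusted p = 0.0435). It ranked 48 of 22180 by p-value. These are low levels: the wildtype mean lay 0.92 above the array medians of 3.08 to 3.16 and the Sel1L-deficient mean 0.24 above, so signal was not separated from background and the fold is not exact. The call lay close to the threshold and was lost in each of the 6 fits that left out 1 array (adjusted p from 0.0973 to 0.205), while the difference stayed between -0.70 and -0.64.

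Pdx1, a homeodomain activator of the insulin gene and of many other β-cell genes, read 7.55, 7.06 and 7.47 in wildtype and 6.72, 6.56 and 6.81 in Sel1L-deficient islets. Wildtype replicate 2 was the lowest control and lay 0.25 above the highest Sel1L-deficient array. The means were 7.36 ± 0.26 and 6.70 ± 0.13 (SD, n = 3 each), 1.58-fold apart, with a difference of -0.66 ± 0.15 (SE, 95% interval -1.0 to -0.32, limma adjusted p = 0.196). The threshold was not passed over all genes, although the interval of this single gene lies below 0. Without wildtype replicate 2 the difference was -0.81, the largest of the fits that left out 1 array.

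The gap between the Pdx1 and Plut probe sets on an array was 3.32 ± 0.23 in wildtype and 3.33 ± 0.14 in Sel1L-deficient islets (SD, n = 3 each), a description that compares no levels between the genes. Because Plut lay near the array medians in Sel1L-deficient islets, its log2 difference can be held down by background, and the like size of the differences of Pdx1 and Plut was not read as equal change. Replicate 2 was the lowest wildtype array for both genes. Among the Sel1L-deficient arrays the lowest was replicate 2 for Pdx1 and replicate 1 for Plut.

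Nkx6-1, a homeodomain factor restricted to β cells within the adult islet, read 8.54, 8.36 and 8.80 in wildtype and 7.97, 7.86 and 8.19 in Sel1L-deficient islets. The highest Sel1L-deficient array, replicate 3, lay 0.17 below the lowest wildtype array. The difference was -0.56 ± 0.14 (SE, 95% interval -0.89 to -0.23, 1.47-fold, limma adjusted p = 0.263), which did not pass. Within each genotype Nkx6-1 and Pdx1 were both lowest on replicate 2.

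Mnx1, also called HB9, a homeodomain factor of β cells and motor neurons, read 4.94, 4.88 and 4.85 in wildtype and 4.58, 4.63 and 4.75 in Sel1L-deficient islets. The groups were separated by 0.10, the narrowest gap among the 6 members without overlap. Its difference of -0.24 ± 0.10 (SE, 95% interval -0.47 to -0.01, limma adjusted p = 0.514) did not pass. With that of Insm1 it is the middle of the members' differences and so sets their median.

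Nkx2-2, a homeodomain factor of most islet endocrine cells that in β cells represses α-cell genes, read 8.73, 8.86 and 9.01 in wildtype and 8.39, 8.51 and 8.41 in Sel1L-deficient islets. All Sel1L-deficient arrays lay at least 0.21 below the wildtype arrays. The difference was -0.43 ± 0.11 (SE, 95% interval -0.69 to -0.17, 1.35-fold, limma adjusted p = 0.269), again not past the threshold.

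Rfx6 was the 1 member that lay wholly on the other side. This winged-helix factor of the RFX family acts in endocrine development and in the secretory function of β cells. It read 9.33, 9.34 and 9.02 in wildtype and 9.77, 9.75 and 9.49 in Sel1L-deficient islets. Replicate 3 was the lowest array of each genotype. Those arrays had both male-type transcripts and the highest level of acinar markers, described below, and the traits cannot be told apart here. The difference was 0.44 ± 0.13 (SE, 95% interval 0.13 to 0.75, 1.36-fold higher, limma adjusted p = 0.348) and did not pass.

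**Figure D2:**
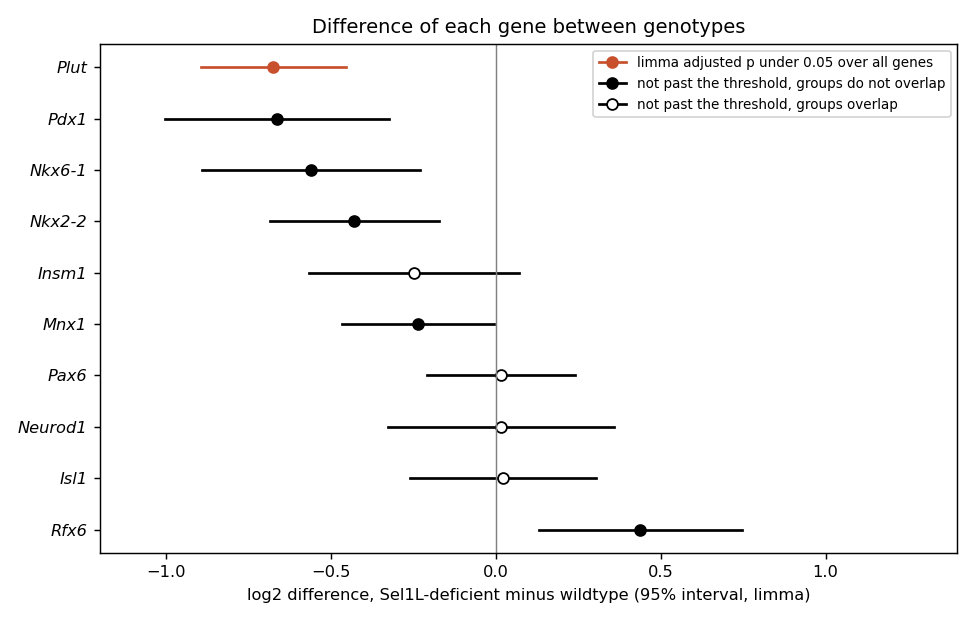
Log2 difference, Sel1L-deficient minus wildtype, with its 95% interval from limma for each of the 10 genes; red marks a limma adjusted p under 0.05 over all genes, filled points mark groups that do not overlap. Plut alone is red, at -0.67; the intervals of Pdx1, Nkx6-1, Nkx2-2 and Mnx1 lie below 0, that of Rfx6 above 0, and those of Pax6, Isl1, Neurod1 and Insm1 span 0.

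Pax6 and Isl1, which act across endocrine cell types, had differences near 0. Pax6, a paired and homeodomain factor, read 8.51, 8.44 and 8.60 in wildtype and 8.53, 8.51 and 8.55 in Sel1L-deficient islets, the latter all inside the wildtype range. Its difference was 0.01 ± 0.10 (SE), and the 95% interval of -0.21 to 0.24 leaves out changes as large as that measured for Pdx1. Isl1, a LIM-homeodomain factor, read 9.40, 9.28 and 9.52 against 9.42, 9.26 and 9.60. It differed by 0.02 ± 0.12 (SE, interval -0.26 to 0.30). Their directions turned when single arrays were left out, down to -0.02 for Pax6 and -0.06 for Isl1.

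Insm1, a zinc-finger repressor that acts with NEUROD1 and NKX2-2 in endocrine development, read 6.17, 6.06 and 6.26 in wildtype. The Sel1L-deficient arrays read 5.72, 6.18 and 5.85, of which replicate 2 lay within the wildtype range. The difference of -0.25 ± 0.14 (SE, interval -0.56 to 0.07, limma adjusted p = 0.651) was -0.38 without that array and -0.15 without Sel1L-deficient replicate 1, so those arrays decide its size.

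Neurod1, the helix-loop-helix factor that binds E-boxes of the insulin promoter, read 5.36, 5.34 and 5.05 in wildtype and 5.15, 5.54 and 5.10 in Sel1L-deficient islets. The groups overlapped, with a difference of 0.02 ± 0.15 (SE, interval -0.33 to 0.36). Its probe set needs a caution. Sorted by identifier, the named probe sets next to it, up to 10 on each side, held 17 genes with a known strand, and all 17 lie on the plus strand of its chromosome, while Neurod1 lies on the minus strand. For the other 8 members with a known strand 86.7% to 100% of such neighbours shared the member's own strand. Whether this probe set reads the Neurod1 transcript was not tested. A further 3 probe sets carry a second symbol beside Nkx2-2, Neurod1 or Pax6 and were left out of the comparison by the rule on single symbols. The one named for both Neurod1 and Cerkl lay wholly lower in Sel1L-deficient islets, by -0.30, and is described in the last section.

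The genes that these factors are known to bind or activate in β cells included genes that fell. Of 24 measured genes of that list 8 fell, 0 rose and 16 did not pass, with a median difference of -0.50, and 15 lay wholly lower. Over all genes 0.153% passed as lower and 7.84% lay wholly lower. Mafa, which belongs to the list and is itself a β-cell transcription factor, fell 4.33-fold (difference -2.11 ± 0.11 SE, limma adjusted p = 0.000681). So did Ucn3, a peptide gene of mature β cells, Ppp1r1a, a phosphatase inhibitor, Sytl4, a granule-docking protein, and Slc2a2, the gene of GLUT2 that carries glucose into β cells, by 3.99-fold, 3.50-fold, 3.16-fold and 2.60-fold. Pcsk1, a proinsulin convertase, Ero1b, an oxidase of the endoplasmic reticulum, and G6pc2, a glucose-6-phosphatase gene of islets, fell too, with differences of -1.05, -0.92 and -0.91.

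The same list held genes with differences near 0, named here after their values were seen. Iapp, the islet amyloid gene, differed by -0.09, Glp1r, the receptor of the incretin GLP-1, by -0.06, and the potassium channel genes Abcc8 and Kcnj11 by -0.07 and -0.10, and none of these passed. Ins2, the insulin gene measured here, differed by -0.50 (limma adjusted p = 0.279), with its 3 Sel1L-deficient values below all wildtype values. Iapp, Glp1r and Ins2, at wildtype means of 11.7, 11.5 and 11.1, stood toward the top of a scale that ends at 13.0. Whether differences are held down there was not tested. The list and its members were written with earlier results on these arrays in view, so its count is no independent evidence of direction. The count of 8 dropped to 1 when wildtype replicate 1, wildtype replicate 3, Sel1L-deficient replicate 1 or Sel1L-deficient replicate 2 was left out. It was 3 on leaving out wildtype replicate 2, 6 on leaving out Sel1L-deficient replicate 3, and 0 when both replicate 3 arrays were left out.

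Other islet transcription factors changed in both directions. Of 49 measured 1 rose, 1 fell and 47 did not pass, with a median of 0.02. Over all genes 0.243% passed in either direction. Neurog3, which starts the endocrine program in the embryo and acts upstream of Neurod1, Insm1, Nkx2-2 and Rfx6, rose 2.18-fold (difference 1.13 ± 0.12 SE, limma adjusted p = 0.0156), and Mafa fell. Next by p-value came Irx1, a factor of α cells, with 0.56, Nkx2-1 with -0.50 at a level below the array medians, Nfatc1, a calcium-responsive factor, with 0.46, and Myt1, a zinc-finger factor of endocrine cells, with 0.34. None of these 4 passed (limma adjusted p from 0.265 to 0.387). Neurog3 passed without Sel1L-deficient replicate 3 and lost the threshold without any of the other 5 arrays (adjusted p from 0.0686 to 0.108). On the 4 arrays with female-type transcripts neither Neurog3 (1.19, limma adjusted p = 0.128) nor Mafa (-2.11, adjusted p = 0.0527) passed.

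Partner proteins were measured as well, since homeodomain and helix-loop-helix factors work in complexes. Of 38 measured 0 rose and 0 fell over all genes by limma (median 0.01), while 4 had an unadjusted p under 0.05, a share near the 9.48% over all genes. Ldb2, a LIM-domain-binding adaptor, differed by 0.66 (limma adjusted p = 0.0546, a call that was gained with further quantile normalization or with brighter genes only) and its relative Ldb1, the cofactor of ISL1 in β cells, by 0.34 (adjusted p = 0.378). Tle3, a Groucho-type corepressor that works with NKX2-2 and NKX6-1, differed by -0.48 (adjusted p = 0.183), and passed with the trended robust prior of limma. Each of the 3, named as the first by p-value, lay wholly on one side, Ldb2 and Ldb1 higher and Tle3 lower. Of the 38 measured, 7 lay wholly higher and 5 wholly lower, beside 7.22% and 7.84% of all genes.

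Genes of a list built around the other hormone cells, several of which these factors hold low in β cells, did not pass. The list also held Ldha, Slc16a1, Hk1, Aldh1a3 and Tph1, which are not markers of another islet hormone cell. Its count and median cover them too. Of 17 measured 0 rose and 0 fell by limma, and the median was 0.14. At an unadjusted limma p under 0.05 there was 1, against 9.48% of all genes. Gcg, the glucagon gene, differed by 0.03 and Sst, the somatostatin gene, by -0.03, both near the top of the scale. Irx1 was the one at an unadjusted p under 0.05, and Pyy and Irx2 followed with 0.25 and 0.27.

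**Figure D3:**
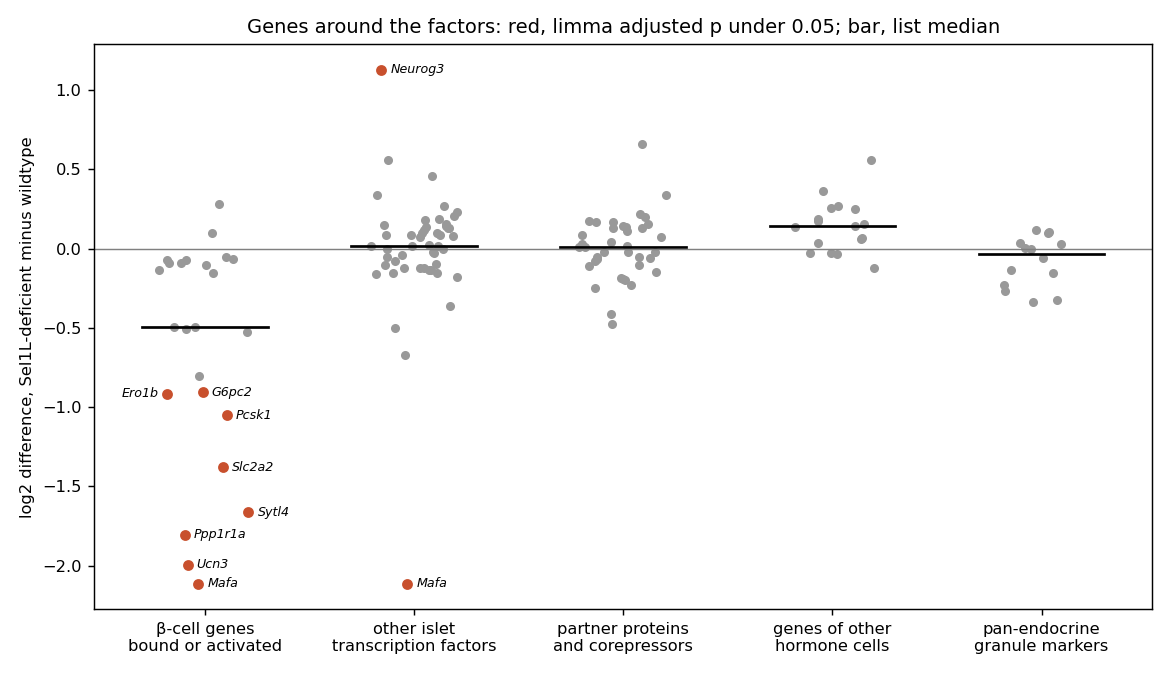
Log2 difference, Sel1L-deficient minus wildtype, for every measured gene of 5 lists around the factors; each point is a gene, red points have a limma adjusted p under 0.05 over all genes, and black bars are list medians. The β-cell list holds 8 red points, all below 0, with its median at -0.50; Mafa and Neurog3 are the red points among other transcription factors, and the last 3 lists hold none.

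Markers of the cells that an islet preparation can hold were read on the same arrays. Pan-endocrine granule genes had 0 of 14 past the threshold, a median of -0.03, Syp, Ptprn and Vgf first by p-value, and a mean level of 9.87 to 10.0 in wildtype and 9.82 to 9.87 in Sel1L-deficient islets. Endothelial markers, of which 0 of 14 passed, had a mean level of 5.55 to 5.90 in wildtype and 5.96 to 6.12 in Sel1L-deficient islets, without overlap, led by Kdr, Tie1 and Eng. Their median difference was 0.38. At an unadjusted limma p under 0.05, 7 were higher and 0 lower, against 9.48% of all genes in either direction. Their part in the members' differences was not tested. Mesenchymal markers had a mean level of 4.64 to 5.16 and 5.11 to 5.45, with 0 of 15 past the threshold and Lum, Dcn and Sparc first by p-value. Their median difference was 0.35, with 4 higher and 0 lower at an unadjusted limma p under 0.05. The part of mesenchymal cells was not tested either.

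Acinar markers, genes of the enzyme-secreting pancreas that can be carried over in islet picking, overlapped between genotypes, with a median difference of -0.71. Their mean level was 6.56 to 8.08 in wildtype and 6.06 to 8.06 in Sel1L-deficient islets, highest on replicate 3 of both and lowest on Sel1L-deficient replicates 1 and 2, with 0 of 13 past the threshold and Bhlha15, Ctrb1 and Cela1 first by p-value. With that level as a covariate Pdx1 differed by -0.59, Plut by -0.66 (limma adjusted p = 0.132), Nkx6-1 by -0.46 and Rfx6 by 0.35. Duct markers (0 of 12 past the threshold, led by Aqp1, Muc1 and Car2), leukocyte markers (0 of 14, led by Fcer1g, C1qb and Laptm5) and Schwann markers (0 of 6, led by Ncam1, Foxd3 and Sox10) overlapped in mean level between genotypes.

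**Figure D4:**
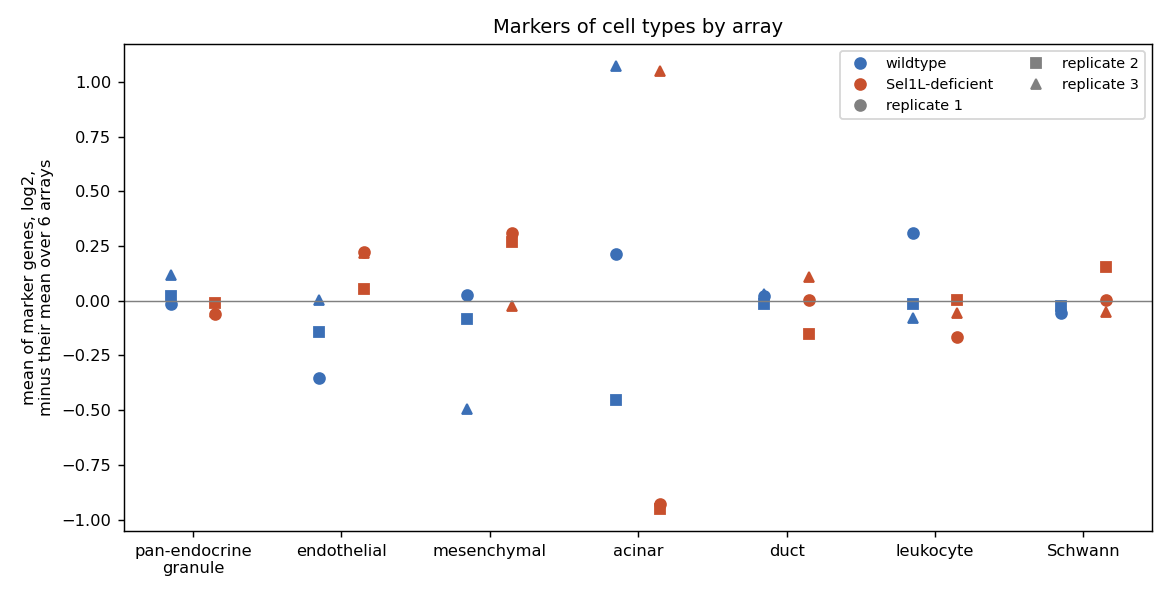
Mean log2 level of 7 marker lists on each array, after subtracting each list's mean over the 6 arrays; colours give the genotype and symbols the replicate. Endothelial markers lie higher on the 3 Sel1L-deficient arrays, acinar markers are highest on replicate 3 of both genotypes, and the pan-endocrine granule genes stay near 0.

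On the 4 arrays with female-type transcripts, with 2 per genotype, the members without overlap kept their directions. Groups without overlap cannot turn in any subset of the arrays, so this was fixed in advance. Plut differed by -0.70, Pdx1 by -0.67, Nkx6-1 by -0.54, Nkx2-2 by -0.34 and Rfx6 by 0.43 among these arrays, and none of them passed there (limma adjusted p of Plut 0.249). With a covariate for those transcripts on all 6 arrays, Plut had an adjusted p of 0.0651. Over the 17 other fits of each gene, Pdx1, Plut, Nkx6-1, Nkx2-2, Mnx1 and Insm1 stayed below 0 and Rfx6 above 0 in all 17. These are not 17 separate checks of direction. Several settings, such as the trended robust prior and the replicate block, leave the difference itself as it was. Leaving out arrays cannot turn a member without overlap.

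**Figure D5:**
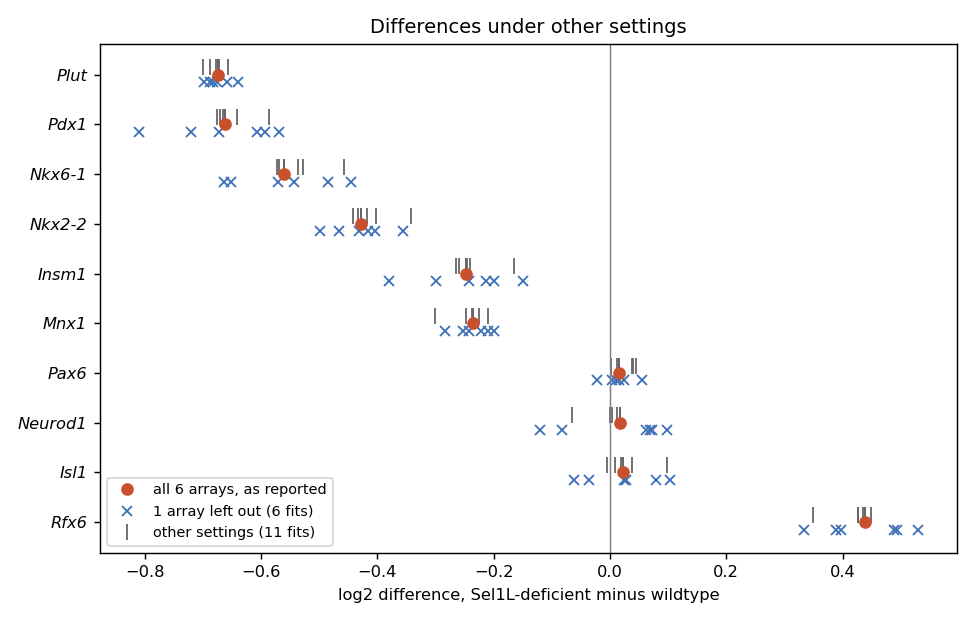
Log2 difference, Sel1L-deficient minus wildtype, of each of the 10 genes with all 6 arrays (red), with 1 array left out (blue crosses, 6 fits) and under 11 other settings (grey bars). Plut moves least among the genes below 0, from -0.70 to -0.64, Pdx1 spans -0.81 to -0.57, and Pax6, Neurod1 and Isl1 fall on both sides of 0.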

How the data were processed

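Gene expression was measured on 6 Affymetrix arrays of mouse islet RNA, 3 per genotype. The authors summarised probe sets with RMA, per the submitters' processing notes. The software version and the log base were not known here. Because they lie between 0.526 and 13.0, the deposited values were taken as log2 values. RMA pulls large ratios toward 1, and the table has no detection call.

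The platform annotation gave 1 gene symbol to 23521 of 41345 probe sets, several to 1814 and none to 16010. The probe set with the highest mean stood for a gene, which left 22180 genes. Differences were tested with limma 3.58.1 in R 4.3.3 (lmFit, eBayes, two-sided), with Benjamini-Hochberg adjustment over all 22180 genes and a threshold of 0.05. Errors are SD over 3 arrays for levels and limma's standard error for differences. The step was tested on simulated data. The members and gene lists were chosen with earlier results of these data known, so no list was tested. The text names Sel1l, sex-linked check genes, all members and, from each list, the genes past the threshold or, failing 3 of those (6 for transcription factors), the next by p-value. Promoter windows are RefSeq's, of build GRCm38.p6, and 9 of 10 members had one. The array design's own build was not used here. Other settings tried are given in the closing section.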

Additional observations from a re-analysis of the deposited data

How the results depend on the processing

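The depth of an array cannot be set by counting, so 3 arrays per genotype limit the precision, and signal near the array medians limits Plut. Of 170 refitted member differences 150 kept direction and side of the threshold, 8 turned and 12 lost the threshold, all 12 of them Plut's. Many of the 170 could not turn, because the setting changes only the error or because the groups do not overlap on any subset of arrays. The number of members past the threshold was 0 with arrays centred on their medians (Plut adjusted p = 0.0507), with a trended robust prior (0.0742), with the sex-linked covariate, on the 4 arrays with female-type transcripts, with the acinar covariate and without any 1 array. It stayed at 1 with further quantile normalization, brighter genes only, mean probe sets, array weights or every probe set tested. With the trended robust prior Pdx1 (limma adjusted p = 0.0566) and Nkx2-2 (0.0640) came ahead of Plut, so the standing of Plut among the members depends on the prior. All genes past the threshold numbered 133 with the trended robust prior, 24 with the acinar covariate, 1 on those 4 arrays and 4 to 29 without 1 array, against 54. The members' median ran from -0.30 to -0.17 without 1 array. Differences that turned were those near 0: without 1 array Pax6 ran from -0.022 to 0.055, Isl1 from -0.063 to 0.10 and Neurod1 from -0.12 to 0.10; on the 4 arrays Isl1 was -0.00513 and Neurod1 -0.000214; with the acinar covariate Neurod1 was -0.065. The cause was not tested. The acinar covariate and the 4-array selection were chosen after seeing the data.

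With the replicate number as a block (replicate block), 36 genes and 0 members passed (Plut adjusted p = 0.110). Same-numbered arrays correlated at 0.105, 0.072 and 0.21 in their deviations from group means, each highest with its own number. The labels do not say that a number marks a shared litter or day. The replicate 3 arrays, with 0.21, share male-type transcripts and high acinar markers. Deviations from a group mean are not independent of each other, so the correlations cannot decide whether the arrays were paired.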

Other observations

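A probe set annotated to both Neurod1 and Cerkl, left out of the comparisons because it names more than 1 gene, read 9.07, 8.93 and 9.09 on the wildtype arrays and 8.88, 8.73 and 8.58 on the Sel1L-deficient arrays. All 3 Sel1L-deficient values lay below the wildtype values, with a difference of -0.30 between the means and no test. Of its 16 nearest named probe sets by identifier with a known strand, 15 belong to genes on the minus strand, where Neurod1 lies. It was looked at after the values of the Neurod1 probe set had been seen and cannot be assigned to either gene. The probe set of Nkx2-2 and Nkx2-2os differed by 0.04 and that of Elp4 and Pax6 by 0.03, and both overlapped between genotypes.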
